A study of Mus musculus with 16 samples.

Results

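The myeloid cells of the pubertal mouse mammary gland made up 93 of the 1317 cells (7.06%) that passed the limits on quality, out of 1419 cells deposited. They were chosen by a rule. Each cell took the class, among basal, ER+ luminal, ER- luminal, fibroblast, myeloid and endothelial, whose marker genes had the highest mean z-score, and the myeloid markers were Cd68, Lyz2, C1qa and Tyrobp. The levels of these genes chose the cells, so they are given below as a description, with no test. Counts were unique molecular identifiers (UMIs), each of which stands for 1 captured transcript end, and levels are in CPM, UMIs scaled to a total of 1000000 in the cell or sum.

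The cells came from 16 dissected fragments of mammary glands of C57BL/6 mice, 4 of the nipple region, 6 of ducts and 6 of terminal end buds (TEBs). The mice were 5 weeks old and carried Krt14-Cre, driven by a keratin promoter of basal epithelium, and an mTmG reporter, which marks cells of the Krt14 lineage. The sources used here do not say which fragment came from which mouse. Fragments were digested with collagenase and TrypLE, and single cells were sorted into plates. The sort gate is not given in the sources used here, so the share of myeloid cells is a share of sorted cells. The fragment was taken as the replicate, and since the labels do not say that fragments came from separate mice, p-values measure only the spread between fragments.

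Macrophages are phagocytes that enter the mammary gland during puberty, gather around the TEB and the growing duct, and are known to be needed for ductal elongation. They depend on signalling through CSF1R, take up dying cells and matrix through scavenger receptors and lysosomes, and tag targets through complement C1q. Dendritic cells present antigen on MHC class II, monocytes are their blood-borne relatives, and mast cells store proteases in granules.

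The members had a median of 18698 UMIs and 2119 genes, fewer than basal cells (24523 UMIs), ER+ luminal cells (38505) and fibroblasts (35980.5). Their median depth was 20537.5 UMIs in nipple, 13758 in duct and 23134 in TEB. Wells of a fragment were pooled after barcoding, and 95 of the 95 well barcode names occurred in more than 1 fragment, but 0 cell columns were identical. Epithelial and fibroblast transcripts were found in the median member at 9.98% ± 5.97 (mean ± SD over fragments, n = 4) of their level in all cells of the same fragment in nipple, 15.5% ± 11.01 (n = 6) in duct and 10.2% ± 7.20 (n = 6) in TEB. This ratio gave, for each gene, the UMIs expected in the members from other wells. It counts all epithelial and fibroblast transcripts of the median member as coming from other wells. No doublet caller was run.

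The markers were detected in most members. For the genes of the rule this follows in part from the choice of cells and cannot support the name. Tyrobp, the adaptor DAP12 of activating receptors, was detected in 88 of the 93 cells and in 16.8% of all other cells. Lyz2, a lysozyme of phagocytes, was detected in 78 cells, Cd68, a lysosomal glycoprotein, in 75, and C1qa, a chain of complement C1q, in 53. Cd74, the invariant chain of MHC class II, which the rule did not use, was detected in 80. In the 14 fragments with at least 3 members, summed myeloid Lyz2 lay between 2221 and 8076 CPM (median 4326), against 4.14 to 19.6 CPM in the fragment's other cells. Cd74 lay between 2189 and 19681 CPM (median 8762), against 7.36 to 48.0. For both genes the lowest myeloid sum stood above the highest sum of other cells, which for Lyz2 follows in part from the rule. How many of all genes show such a gap was not counted.

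The edge of the class was thin. The margin between a member's myeloid score and its next score had a median of 3.18, and 7 members had a margin under 0.5. The 3 members nearest to the edge had margins of 0.00391, 0.0207 and 0.0413, and the 3 non-members nearest to entry missed it by margins of -0.0206, -0.0332 and -0.0358. One of the members nearest to the edge held 9407 CPM of Krt8 and Krt18, keratins of luminal cells. The class also held 4 cells with mast cell protease genes and without the phagocyte markers of the rule other than Tyrobp, described below. Of other blood cells, the T cell genes Cd3e, Cd3d and Cd3g, the B cell gene Cd79a and the neutrophil gene S100a9 had 0 UMIs in 93 cells, which allows up to 3.23% of cells with a UMI. Other members of these lists were present. The lymphocyte list was held, with at least 3 UMIs, by 37 members (39.8%) and 0.817% of other cells, most of it Il7r, the interleukin 7 receptor, at 361 CPM in 38 cells, with Cd2 in 9 cells and Gzma in 1. The neutrophil list was held by 19 members (20.4%) and 56.2% of other cells, most of it Lcn2, which epithelial cells also make, with Csf3r in 7 cells. Cdh5, Kdr and Emcn, endothelial markers that the class rule itself used, were at 0.

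Genes of antigen presentation, Fc receptor signalling, complement and phagosome function led the list of genes by the ratio of myeloid to other cells. This contrast is the one the rule used, so it is a description. Of the 1800 genes outside the rule's lists with at least 100 CPM in the pooled members, 479 (26.6%) were at least 2-fold higher in the myeloid sum than in the other cells, in the median of 14 fragments. Fcer1g, the common gamma chain of Fc receptors, had the largest median ratio, a log2 of 8.79 ± 0.85 (SD, n = 14), at 2880 CPM in the pooled members. Sfpi1, the gene of PU.1, the transcription factor that specifies myeloid cells, followed at 8.77 ± 0.66, with 707 CPM in members and 0.853 CPM in other cells. It was detected in 70 of the 93 cells and in 2.45% of other cells.

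**Figure D1:**
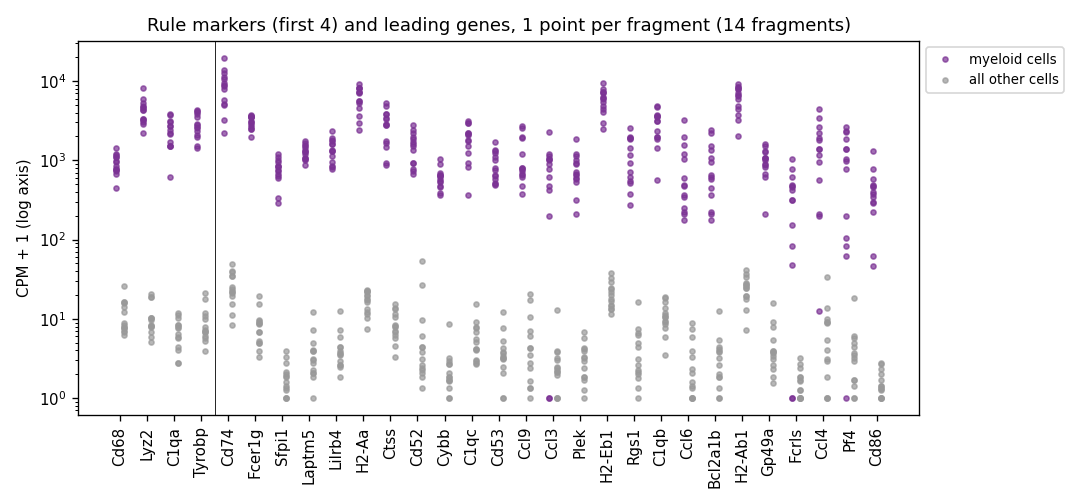
CPM + 1 (log axis) of the 4 rule markers, left of the line, and of the 25 leading genes, in the myeloid sum (purple) and in the sum of all other cells (grey) of each of 14 fragments, 1 point per fragment. Myeloid and other sums are apart for nearly all genes, while Ccl3, Fcrls and Pf4 were at 0 in 1 or 2 myeloid sums.

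All 25 leading genes had median log2 ratios of 7.92 to 8.79. Antigen presentation gave H2-Aa (log2 8.48), Cd74 (8.27), H2-Eb1 (8.16), H2-Ab1 (8.09) and the costimulator Cd86 (7.92). Lysosome and oxidase genes were Ctss, cathepsin S (8.45), Laptm5 (8.73) and Cybb, the catalytic chain of the phagocyte NADPH oxidase (8.32). The other C1q chains were C1qc (8.29) and C1qb (8.11). Chemokines were Ccl9 (8.20), Ccl3 (8.19), Ccl6 (8.11), Ccl4 (7.98) and Pf4 (7.95). Lilrb4 (8.62) and Gp49a (8.07) are neighbouring, closely similar receptor genes, and Bcl2a1b (8.10) is 1 of a family of near-identical survival genes. Their reads may therefore be split or lost in counting.

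The leading genes were set against the promoter table of RefSeq on GRCm38.p6, which holds the 250 bases before and 50 after each gene's start, because PU.1 itself was among them. Of the rule markers and leading genes, 19 were matched by symbol. The PU.1 motif GAGGAAGT, on either strand, was present in 5 of these 19 windows (26.3%), against 3.69% of 27025 gene symbols. The C/EBP motif TTGCNNAA was present in 2 (10.5%), against 12.2%. A match is a description of the letters and not a binding site. The 5 matched windows are shown because they are all the leading genes in which the motif was found, and they encode a protease, a complement chain, a tetraspanin, a survival protein and a chemokine. Each is read along the gene's strand, with the motif or its reverse complement in capitals.

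Ctss, chr3:95526773-95526802, plus strand: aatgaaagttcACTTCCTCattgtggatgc
C1qc, chr4:136893091-136893120, minus strand: ggacggcagacACTTCCTCattttggcaca
Cd53, chr3:106790125-106790154, minus strand: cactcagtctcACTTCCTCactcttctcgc
Bcl2a1b, chr9:89199114-89199143, plus strand: cagaagaggaaGAGGAAGTggtgtgttgct
Pf4, chr5:90772414-90772443, plus strand: ttctgcagagcACTTCCTCatcctgtatcc

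In Ctss the capitals span positions -2 to 5 around the annotated start, counted from 0 at the first transcribed base, and in Pf4 they end at -3. In Cd53 they lie just after it, at 6 to 13. In Bcl2a1b they start at -148 and in C1qc at -195.

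Receptor and signalling genes of phagocytes were high in members. The list counts that follow cover genes with at least 50 CPM. Of the genes outside the rule's lists with at least 100 CPM, 26.6% were at least 2-fold higher. Of the 14 macrophage identity genes with at least 50 CPM in the pooled members, 14 were at least 2-fold higher than in other cells. Csf1r, the receptor for CSF1, had 645 CPM in members and at most 7.54 CPM in any other class, and was detected in 66 of the 93 cells. Emr1, the gene of the F4/80 antigen, had 339.6 CPM and was detected in 59 cells. Of the 18 expressed genes of DAP12 and Fc receptor signalling, 18 were at least 2-fold higher, among them Fcgr3 (464 CPM) and Syk (275 CPM), the kinase that these receptors recruit.

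The ligands of CSF1R were highest in other classes. Pooled Csf1 was 725 CPM in fibroblasts, 442 CPM in endothelial cells, 112 CPM in basal cells and 20.4 CPM in members. In ER- luminal cells it was 50.9 CPM, and in ER+ luminal cells, below the members, 11.6 CPM. Il34, the second ligand, was 41.8 CPM in fibroblasts and 0.972 CPM in members. The GM-CSF receptor chains Csf2rb and Csf2ra had 423 and 317 CPM in members, and their ligand Csf2 had 0.972 CPM. Csf2rb also had 199 CPM in endothelial cells, and Csf2 had 4.32 CPM in fibroblasts. Each class pool is 1 value over all fragments, with no replicate error.

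Genes for digestion and for iron and lipid handling were also high. Of 21 lysosomal genes, all expressed, 15 were at least 2-fold higher than in other cells, including Ctsb (3461 CPM, log2 2.03) and Lgmn (1436 CPM, log2 4.76). Of 7 iron and haem genes, 7 were, led by the ferritin chains Fth1 (10746 CPM) and Ftl1 (9760 CPM), with haem oxygenase Hmox1 at 2740 CPM. Hmox1 was as high in fibroblasts, at 2762 CPM. Of 12 lipid genes, 9 were, led by Apoe (5012 CPM) and Lgals3 (3771 CPM). Apoe was nearly as high in basal cells, at 4453 CPM, and Lgals3 stood at 2551 CPM in ER+ luminal cells. Genes for the uptake of dying cells were less uniform, with 5 of 11 higher and 2 lower. The scavenger receptor Cd36 (762 CPM) was high, whereas Mertk had a UMI in 1 of 93 cells.

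Chemokine genes were widely expressed. Of 15 expressed chemokine genes, 12 were at least 2-fold higher than in other cells. Cxcl2, which attracts neutrophils, led with 3541 CPM and was detected in 70 cells, and Ccl7, which attracts monocytes, followed with 1746 CPM. Ccl2 was at 1187 CPM in members and 1173 CPM in fibroblasts. Of 12 cytokine genes, 9 were higher, including Il1rn (649 CPM), Il10 (440.2 CPM, detected in 29 cells), Tnf (376 CPM) and Osm (298 CPM). Growth factors differed from this, with 2 of 7 higher (Grn and Tgfbi) and 2 lower. Areg, an EGF receptor ligand of the mammary epithelium, had 185 CPM in members and 1011 CPM in other cells, and Igf1 had 117 CPM in members against 253 CPM in fibroblasts. Immediate early genes, which respond to dissociation in many cell types, were higher by at least 2-fold for 4 of 12 (Dusp1, Zfp36, Atf3 and Nr4a1) and lower for 1. The shares higher among growth factors and immediate early genes were near the 26.6% of all genes with at least 100 CPM.

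The members were not 1 kind of cell. The summed level of C1qa, C1qb and C1qc split them, with 51 cells at 1105 CPM or more, 42 cells at 389 CPM or less and 0 between. The genes of resident tissue macrophages, such as the mannose receptor Mrc1 and the folate receptor Folr2, split the C1q-high cells again. The groups below use thresholds set after these values were seen, and they carry no test. C1q-high cells with at least 2000 CPM of the 10 resident genes numbered 33 (3 nipple, 14 duct and 16 TEB). C1q-high cells under that limit numbered 18 (7 nipple, 4 duct and 7 TEB), and 8 C1q-high cells lay between 1000 and 4000 CPM of these genes, near the limit.

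**Figure D2:**
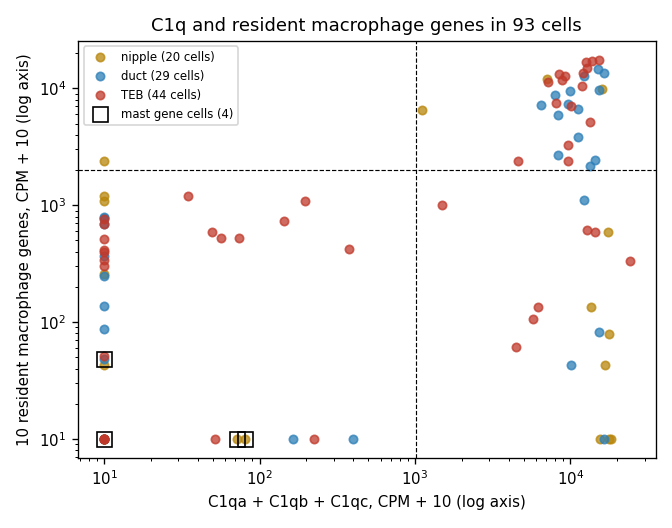
Summed C1q chains (x, CPM + 10, log axis) against 10 summed resident macrophage genes (y, CPM + 10, log axis) in each of 93 cells, coloured by location, with mast gene cells boxed. Dashed lines mark the limits of 1000 and 2000 CPM. The 51 C1q-high cells stand apart on the right, and 7 of the 10 nipple cells among them lie under the resident limit.

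In the 33 C1q-high, resident-high cells Mrc1 was detected in 33 (median 1115 CPM), the chemokine Pf4 in 30 (median 2823 CPM), the coagulation factor gene F13a1 in 27 and Folr2 in 22. Lyve1, a hyaluronan receptor of perivascular macrophages, was detected in 15 of them and in 0 of the 18 resident-low cells. Mrc1, Pf4, F13a1, Folr2 and Lyve1 are all in the sum of resident genes that set these groups. Their gap between resident-high and resident-low cells therefore follows in part from the split and only describes it. In TEB 11 of 16 resident-high cells had a UMI of Lyve1, in duct 3 of 14 and in nipple 1 of 3. These are counts of cells with no test. The duct cells were shallower (median 10133.5 UMIs against 26260.5 in TEB), and 12 of the 14 came from D61 and D62.

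The 18 C1q-high, resident-low cells had Mrc1, a gene of the split itself, in 2 cells. Their median levels of Cd14 (3511 against 1033 CPM) and Ms4a7 (1116 against 252 CPM) were higher than in resident-high cells over all locations. By location, Cd14 was higher in nipple (4649 against 1033 CPM) and duct (2580 against 968 CPM), but lower in TEB (1080 against 1742 CPM). Ms4a7 was higher in nipple (1514 against 27.7 CPM) and duct (871 against 418 CPM), and nearly level in TEB (409 against 343 CPM). The 2 groups differed in their mix of locations. The 7 resident-low cells from nipple were alike. Their summed C1q lay between 13557 and 18103 CPM, and their Cd74 between 8935 and 30793 CPM (median 18554 CPM). The integrin Itgax was detected in 7 of 7, Il1b in 6 of 7 and Cd207, the gene of langerin of Langerhans cells, in 5 of 7, mostly at 1 or 2 UMIs, with 1 cell at 1314 CPM. Epcam, another of the 4 genes of the Langerhans list, was detected in 3 of 7 (median 0 CPM). Over all 93 members, 0 of the 2 expressed genes of that list were at least 2-fold higher than in other cells, and 2 were lower. Lyz2, a marker of the rule, was low in the 7 nipple cells (median 151 CPM), against 6121 CPM in the 7 TEB cells of the same group. Mrc1 was detected in 0 of 7.

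Among C1q-low cells, 11 (1 nipple, 4 duct and 6 TEB) held at least 10 UMIs of Ccr7, Cd209a or Xcr1, genes of migrating or conventional dendritic cells. Ccr7, the receptor that guides cells to lymph nodes, was detected in 8 of them (median 2541 CPM), Cd209a in 9 and Il7r in 9. Their median Cd74 was 18068 CPM, and Lyz2 was low, at 318 CPM. A further 9 cells (2 nipple, 4 duct and 3 TEB) had Plac8 or Ly6c2, genes of monocytes, with Lyz2 at a median of 11166 CPM and Cd74 at 134 CPM. And 7 cells (1 duct and 6 TEB) had MHC class II genes and Lyz2 (median 7777 CPM) with Ccl6, Ccl9 and F13a1 detected in 7 of 7. The remaining 11 cells (5 nipple, 1 duct and 5 TEB) met none of these limits, and their median depth was 10270 UMIs. Tyrobp was detected in 7 of them (median 15.3 CPM) and Lyz2 in 7 (median 261 CPM). Cd68 and Cd74 were each detected in 5 (median 0 CPM). Sparc had a median of 877 CPM, and Krt8 reached 5156 CPM. The name myeloid is therefore weak for part of this group, which was kept in the comparisons below.

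**Figure D3:**
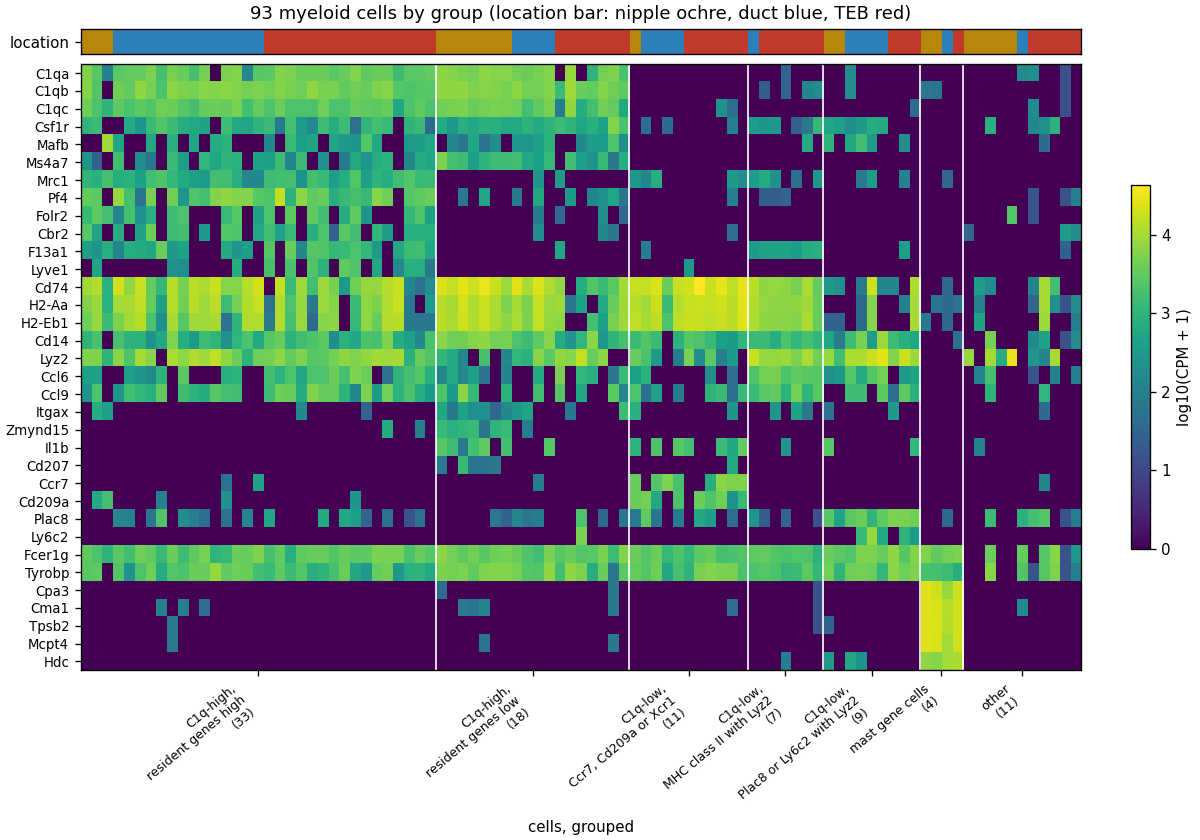
log10(CPM + 1) of 34 genes (rows) in the 93 cells (columns), grouped as described and ordered by location within a group, with a colour bar for location. The block of C1q genes covers the first 51 cells, Ccr7 and Cd209a mark the third group, and Cpa3, Cma1, Tpsb2 and Mcpt4 mark the 4 mast gene cells.

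The 4 mast gene cells came from 2 nipple fragments, 1 duct and 1 TEB fragment. Each held Cpa3 (7801 to 25677 CPM), Cma1, Tpsb2 and Mcpt4, proteases of mast cell granules, and Hdc, which makes histamine. They entered the class through Tyrobp (775 to 1915 CPM), while Cd68, Lyz2 and C1qa had 0 UMIs in the 4 cells. Of the non-members, 0 had at least 10 UMIs of these 4 proteases.

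The first comparison asked whether myeloid cells took a different share of cells by location. Nipple fragments held 5.95%, 5.68%, 4.65% and 7.14% myeloid cells. Duct fragments held 1.22% to 12.99% (median 4.003%), and TEB fragments 5.88% to 13.9% (median 9.06%). The exact 95% interval of 1 fragment was wide, for example 5.86% to 20.8% around 11.9% in TEB fragment T31. The duct range covered both other locations, with D61 and D62 at 12.99% and 11.1% and the other 4 duct fragments at 4.60% or less.

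The mean was 5.86% ± 1.02 (SD, n = 4) in nipple, 5.94% ± 4.90 (n = 6) in duct and 9.29% ± 3.23 (n = 6) in TEB. No pair differed by a two-sided exact permutation test with Benjamini-Hochberg adjustment over the 3 pairs. The exact permutation p was 0.0571 for nipple against TEB (adjusted 0.171), 0.184 for duct against TEB (adjusted 0.276) and 0.962 for nipple against duct. Of the fibroblast, endothelial and myeloid cells alone, which leaves out epithelium, the nipple share was lower, at 13.8% ± 3.16 against 35.2% ± 11.1 in duct and 32.7% ± 17.8 in TEB. The exact permutation p was 0.00952 for nipple against duct and 0.0190 for nipple against TEB (adjusted 0.0286 for both), and 0.797 for duct against TEB. This denominator was an alternative to the share of all cells, and the adjustment covered its own 3 pairs only. Such cells were few, at 5 to 22 in a duct fragment, 12 to 35 in TEB and 34 to 40 in nipple. A share depends on the other cells counted with it, and changes in the number of myeloid, fibroblast or endothelial cells cannot be told apart here.

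**Figure D4:**
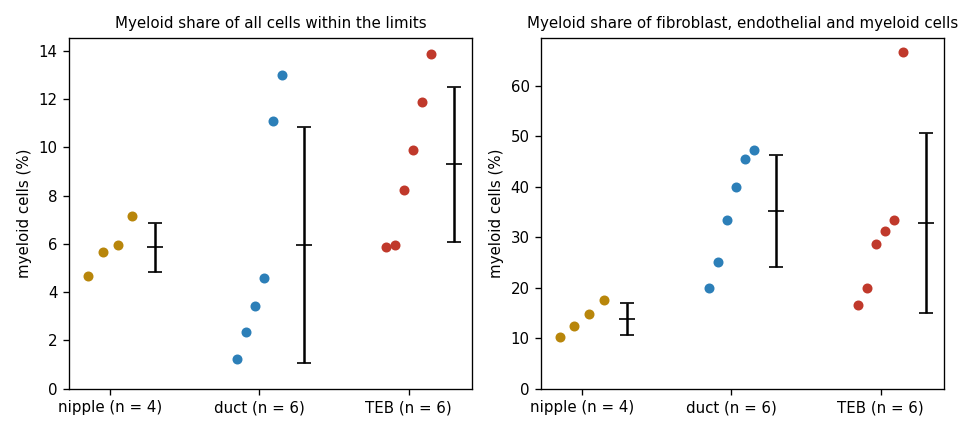
Myeloid cells as a percentage of all cells within the limits (left) and of fibroblast, endothelial and myeloid cells (right), 1 point per fragment, with mean and SD as bars beside the points. On the left the locations overlap. On the right the nipple fragments lie at 10.3% to 17.6%, below the duct fragments at 20% or more, and overlap TEB, which starts at 16.7%.

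The second comparison asked which genes of the myeloid cells differed by location. Counts of the members were summed in each of the 14 fragments with at least 3 members (4 nipple, 4 duct and 6 TEB), scaled by edgeR's TMM method, and 3014 genes were tested with its quasi-likelihood test, adjusted over all of them by Benjamini-Hochberg. In bulk sums of this kind a change in the mix of cells and a change within a cell cannot be told apart. Between nipple and TEB 3 genes (0.0995% of those tested) passed the threshold of 0.05, Ccl6 higher in TEB (0.0332%) and Sparc and Col1a1 higher in nipple (0.0664%). At an unadjusted p under 0.05 there were 277 genes (9.19%). Between nipple and duct 0 passed by edgeR, with 172 at an unadjusted p under 0.05 (5.71%), and DESeq2 called 9. Between duct and TEB 0 passed by edgeR, with 129 at an unadjusted p under 0.05 (4.28%), and DESeq2 called 2. Over the 3 locations together 7 genes (0.232%) passed, those 3 and Fn1, Fgl2, Dcn and Zmynd15, of 224 (7.43%) at an unadjusted p under 0.05. Col1a1 and Dcn are fibroblast markers that the class rule itself used, so their levels also helped to choose the members.

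As a background for statements on overlap, the fragments of nipple and TEB did not overlap in 1.92% of genes higher in TEB and 1.09% higher in nipple. For nipple and duct this was 2.16% higher in duct and 1.56% higher in nipple, and for duct and TEB 0.863% higher in TEB and 0.531% higher in duct.

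Ccl6, a CC chemokine made by macrophages (chr11:83587882-83593087, minus strand, GRCm38 by GENCODE M21), was the gene with the firmest difference. Its TMM-scaled level was 248.5, 220.9, 431.6 and 259.7 CPM in the 4 nipple fragments, and 536.0, 540.3, 422.8 and 307.4 CPM in the 4 duct fragments. In the 6 TEB fragments it was 682 to 3776 CPM, with a median of 1540.0 CPM. Every TEB fragment lay above every nipple and duct fragment. The nipple minus TEB log2 difference was -2.65 ± 0.42 (SE), with an edgeR adjusted p of 0.00165, and the duct minus TEB difference was -2.03 ± 0.41, adjusted p = 0.0766.

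Only 17.0 of its 2190 UMIs in the sums were expected from other wells. The largest single cell gave 10.4% of the TEB UMIs. Leaving out each of the 14 fragments in turn kept the nipple and TEB call, with adjusted p up to 0.0170. Members were deeper in TEB than in nipple or duct, and with each cell thinned to 5000 UMIs the difference was -2.46 and the adjusted p 0.0755. With fragments of at least 2 members it was -2.64, adjusted p = 0.1004. Within the 33 C1q-high, resident-high cells Ccl6 was detected in 15 of 16 TEB cells (median 1805 CPM), 7 of 14 duct cells (median 80.3 CPM) and 2 of 3 nipple cells (median 413 CPM). This is a description of cells with no test, since 12 of the 14 duct cells came from D61 and D62, and the duct cells of this group were shallower (median 10133.5 UMIs) than those of TEB (26260.5) and nipple (24205). The 7 cells with MHC class II and Lyz2, 6 of which came from TEB, had a median of 2678 CPM. The nearby Ccl9 lay between 544 and 3213 CPM in TEB and between 712 and 1520 CPM in nipple, an overlap.

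Fn1, which encodes fibronectin, had 0.0 to 69.3 CPM in nipple and 0.0 to 58.3 CPM in duct fragments. In TEB it had 108.4 to 1220 CPM (median 429.7 CPM), above all fragments of the other locations. The edgeR adjusted p over the 3 locations was 0.0184, and that for nipple against TEB was 0.0756. The first call was lost with at least 5 members per fragment (0.151), and without D32 (0.0753), N23 (0.0603), T31 (0.108) or T32 (0.107). Of its 651 UMIs in TEB members, 61.4 were expected from other wells and 45.6% came from 2 cells, both in the group with MHC class II and Lyz2, in which Fn1 was detected in 7 of 7 cells.

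Zmynd15, a zinc finger gene (chr11:70459433-70466202, plus strand), had 644.0, 506.8, 431.6 and 372 CPM in the nipple fragments. It had 0.0 CPM in 3 of 4 duct fragments and 39.5 CPM in the other, and in TEB 0.0 CPM in 4 of 6 fragments, 19.6 CPM in T43 and 128.1 CPM in T33. The nipple fragments lay above all others, and the adjusted p over the 3 locations was 0.0403. Its 170 UMIs in nipple came from 7 of 20 cells, and these were the 7 C1q-high, resident-low nipple cells described above. The edgeR call was lost without any 1 of the nipple fragments, N21 (adjusted p = 0.143), N22 (0.0648), N23 (0.0734) or N24 (0.104). It was also lost without D32 (0.0849), D61 (0.0809), D62 (0.0685), T32 (0.0835) or T43 (0.130). With a UMI minimum of 10000 the adjusted p was 0.0706, without genes expected from other wells 0.0582, and by DESeq2 0.243.

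**Figure D5:**
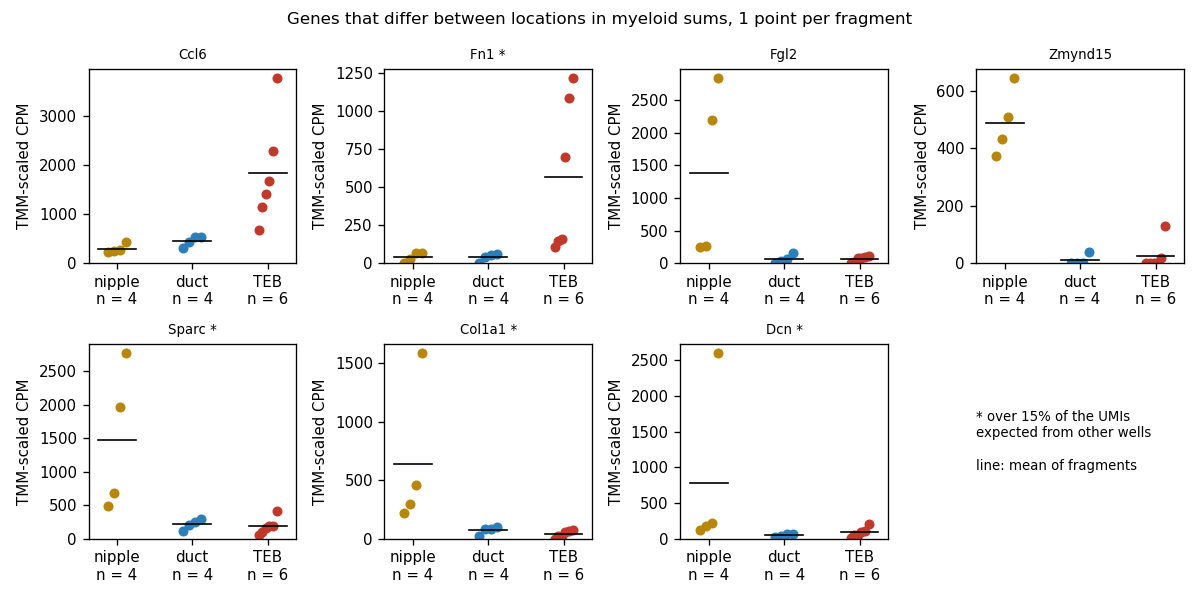
TMM-scaled CPM of the 7 genes that passed the test over the 3 locations, 1 point per fragment (4 nipple, 4 duct and 6 TEB), with the mean as a line. The means of Ccl6 and Fn1 are highest in TEB, and those of the other 5 in nipple. For the genes with an asterisk over 15% of the UMIs were expected from other wells, and in Dcn, Col1a1 and Fgl2 1 or 2 nipple fragments stand far above the others.

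Sparc and Col1a1, matrix genes of fibroblasts, were called higher in nipple, where the members also held more fibroblast transcripts. Sparc had 480.8 to 2770 CPM in nipple against 57.6 to 410.9 CPM in TEB (log2 2.99 ± 0.50, edgeR adjusted p = 0.00221), and Col1a1 215 to 1584 CPM against 0.0 to 69.6 CPM (3.94 ± 0.74, adjusted p = 0.00786). Of their UMIs, 469 of 883 and 285 of 332 were expected from other wells, and fibroblasts had 7790 and 6650 CPM of them. The expected UMIs were scaled by the members' own level of the epithelial and fibroblast lists. Sparc, Col1a1 and Dcn are in the fibroblast list, so their expected and observed UMIs are not independent. The summed fibroblast list was 1358 to 10120 CPM in nipple members, 242 to 931 CPM in TEB and 417 to 588 CPM in duct. One cell of N24 gave 59.7% of the nipple UMIs of Col1a1 and 81.5% of those of Dcn. Without N24 the Sparc adjusted p was 0.0729 and that of Col1a1 0.170. Dcn had 117 to 2597 CPM in nipple and 8.23 to 205 CPM in TEB, an overlap. Its edgeR adjusted p over the 3 locations was 0.0347, and 0.891 without N24. The call was also lost without other single fragments, for example T32 (0.116). Cells of over 5000 CPM keratin or collagen were also left out, a setting chosen after seeing the data. The edgeR adjusted p for nipple against TEB was then 0.119 for Col1a1 (log2 2.95) and 0.00918 for Sparc (log2 2.72). That of Dcn over the 3 locations was 0.815. The part of fibroblast RNA in the location differences of Sparc, Col1a1 and Dcn was not tested.

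Fgl2, a fibrinogen-like gene of macrophages and fibroblasts, had 2203, 259.9, 250.6 and 2839.7 CPM in N21 to N24, 0.0 to 158 CPM in duct and 0.0 to 104 CPM in TEB. The edgeR adjusted p over the 3 locations was 0.0334. The call was lost in 8 of 14 fits that left out 1 fragment, those without D32 (0.0753), D61 (0.0993), D62 (0.0972), T31 (0.108), T32 (0.116), T33 (0.0779), T34 (0.0683) or T43 (0.0893), and without genes expected from other wells (0.0582). Fibroblasts had 1259 CPM of Fgl2, and the pooled members 322 CPM. N21 and N24 stood far above the other nipple fragments, and 70.2% of its nipple UMIs came from 2 cells. The first of them, in N24, gave 36.7% and was the cell that also gave most of the nipple UMIs of Col1a1 and Dcn. The second was among the 11 cells that met none of the group limits. The part of fibroblast RNA in the location difference of Fgl2 was not tested.

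Lists of genes for myeloid functions held few calls. Of 15 chemokine genes tested, Ccl6 was the 1 called between nipple and TEB, with a list median of -0.30 (log2, nipple minus TEB) beside -0.10 for all genes. Of 6 fibroblast genes, some of which the class rule used, 2 were called, with a median of 2.98. In every other list 0 members were called between any pair of locations. All 9 tested MHC class II genes had higher fitted values in nipple than in TEB, with a median of 0.48, but none passed. Cd74 was 6606 to 16074 CPM in nipple and 2378 to 12111 CPM in TEB (adjusted p = 0.523). The 9 resident macrophage genes had a median of -0.49, with F13a1 at 0.0 to 147 CPM in nipple and 160.0 to 1281 CPM in TEB (adjusted p = 0.201). Il1b was 348 to 2183 CPM in nipple and 0.0 to 196 CPM in TEB (adjusted p = 0.445).

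The third comparison asked whether a different share of members held each list, with at least 3 UMIs of it. The 10 lists held by 10% to 90% of members gave 30 comparisons, and 0 passed by the exact permutation test after adjustment (0 at an unadjusted p under 0.05, smallest adjusted p 0.70). The widest gap was in the resident macrophage list, held by 34.2% ± 29.9 (SD, n = 4) of nipple members, 60.3% ± 22.6 (n = 4) of duct members and 71.3% ± 26.3 (n = 6) of TEB members. The exact permutation p of nipple against TEB was 0.0857, adjusted 0.70. The same limit was met by 70.8% of all other cells.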

How the data were processed

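Single cells of nipple, duct and TEB fragments were sequenced from plates by 3' SMART-seq. Per the labels and the study's methods, the authors used UMI-tools, Trim Galore, FastQC, STAR (unique alignments, which affects gene families), featureCounts and mm10. The deposited values are raw UMI counts of 17721 genes in 1419 cells.

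Cells were kept below 5% spike-in, between 5000 and 120000 UMIs, and between 200 and 6000 genes. The class rule used log-normalized, z-scored counts without spike-ins. Members and lists were chosen with earlier results of these data known. Member counts were summed per fragment (at least 3 members, 26726 to 334040 UMIs per sum). Locations were compared by edgeR 4.0.16 with quasi-likelihood fits after TMM scaling and filterByExpr, with robust estimation, Benjamini-Hochberg adjustment and a threshold of 0.05. DESeq2 1.42.0 was an alternative. Shares were compared by two-sided exact permutation tests. Ratios to other cells were log2(CPM + 1) differences. Scripts were tested on simulated data. Older gene symbols were matched for list members.

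Genes named were the rule markers and Cd74, the 25 genes outside the rule with the largest ratio to other cells (at least 100 CPM), up to 4 leading members of each list, and genes called between locations. Other genes, including those of the cell groups, were named after their values were seen. Intervals and the limit of a count of 0 cover counting error only.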

Additional observations from a re-analysis of the deposited data

Results flagged for a closer look

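Of 45 groups of 4 to 6 fragments examined for a fragment far from the others, 6 were flagged. Chance flags about 1 in 20 groups only where values are independent and normally spread, which was not shown here. A group with all values but 1 at 0, as for Zmynd15 in duct, is always flagged. TEB fragment T43 held 66.7% myeloid cells among its non-epithelial cells, where the next TEB fragment held 33.3%. The same fragment had 24.2% of the pooled level of epithelial and fibroblast transcripts in its members, where the next had 9.86%, and 410.9 CPM of Sparc, where the next had 187.8 CPM. Nipple fragment N24 had 2597 CPM of Dcn, where the next nipple fragment had 223 CPM. Zmynd15 was at 39.5 CPM in duct fragment D51, where the other duct fragments were at 0, and at 128.1 CPM in TEB fragment T33, where the next was at 19.6 CPM.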

How the results depend on the processing

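The counts of genes by location were small and moved with most settings, and the causes were not tested unless named. Between nipple and TEB the 3 calls became 32 with at least 5 cells per fragment, 50 with DESeq2, 6 with RLE size factors, 69 with no filter on low counts, 9 with only the locations compared, 0 with cells thinned to 5000 UMIs, 5 with a margin of at least 0.5, 9 with a UMI minimum of 10000, 13 without mast gene cells (an alternative chosen after seeing the data) and 1 without 4466 genes of which over 20% was expected from other wells. Between nipple and duct the count went from 0 to 4 with at least 5 cells, 9 with DESeq2 and 16 with no filter. Between duct and TEB it went from 0 to 2 with DESeq2, 3 with no filter, 4 among fragments whose label number starts with 3 (D32 alone against T31 to T34, so the lone duct fragment is assumed to vary like the others), and 1 each with a margin of at least 0.5, an ERCC limit of 10%, without genes expected from other wells, and without cells of over 5000 CPM keratin or collagen (chosen after seeing the data). Over the 3 locations the 7 became 24, 23, 79, 0 and 2 with at least 5 cells, DESeq2, no filter, thinning, and without genes expected from other wells. Calls among list members between nipple and TEB went from 3 to 9, 14, 19, 6, 0, 6 and 1 with at least 5 cells, DESeq2, no filter, only the locations compared, thinning, without mast gene cells, and without genes expected from other wells.

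Leaving out 1 fragment at a time gave 1 to 15 calls between nipple and TEB (1 without N24, 15 without T34), 0 to 3 between nipple and duct, 0 to 1 between duct and TEB, 3 to 8 over the 3 locations, and 1 to 7 list members. The share differences ranged from -4.12 to -2.52 percentage points for nipple minus TEB, -1.03 to 1.32 for nipple minus duct (above 0 without N23 at 0.317, without D61 at 1.32 and without D62 at 0.949), and -4.76 to -2.41 for duct minus TEB. Among non-epithelial cells they were -18.97, -21.4 and 2.44, the last turned in direction. With a UMI minimum of 10000 nipple minus duct was 1.04. The numbers duct and TEB fragments share in their labels were not shown to pair them (correlation -0.0175 over 2 pairs and 1987 genes). The planned replicate block could not be fitted with at least 3 cells per fragment. With at least 1 cell, added after seeing the data, the replicate block gave 2 calls between duct and TEB, the same fragments without the block gave 0, and the block gave a paired share difference of -7.76 (exact p 0.5, the smallest 2 pairs allow).

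Under the settings run, the tests of cells holding a list gave 0 calls, and 454 to 484 genes were at least 2-fold higher than in other cells. No named gene turned in direction. The call of Ccl6 between nipple and TEB was made in 26 of 28 fits.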
